A study of Arabidopsis thaliana with 12 samples.

Results

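The 37 genes described here encode expansins and xyloglucan endotransglucosylase/hydrolases (XTHs), 2 families of proteins that act on the plant cell wall. They were taken by gene identifier from the 33602 genes of the count table, and comprise 14 alpha expansins, 3 expansin-like genes, 2 beta expansins and 18 XTH genes, TCH4 (XTH22) among them. Family members that belong to the root-hair gene set were not included in the 37. RNA was sequenced from whole 7-day-old Arabidopsis thaliana seedlings, either wild type (the Col-0 accession) or gp1-2, the SAIL_209_D07 insertion line in the Col-0 background. Seedlings of both genotypes grew at 22 °C with 16 h of light on ½-strength Murashige and Skoog medium with 1% sucrose, and all were moved at 5 days to a divided plate. The treated seedlings shared that plate for 2 days with GB03, a growth-promoting Bacillus strain, and were exposed to its volatiles, whereas the untreated seedlings had no bacteria. The 4 groups, wild type and gp1-2 each with and without volatiles, held 3 biological replicates each, and the gp1-2 line was represented by 1 insertion allele.

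Plant cells grow by letting turgor stretch a wall of cellulose microfibrils that are held together by xyloglucan and pectin. Expansins loosen that wall at acid pH without cutting its polymers, while XTHs cut xyloglucan chains and rejoin them to other chains, or in a few members hydrolyse them. Both families are large, and individual members are switched on by auxin, brassinosteroid, light, touch or developmental stage, so transcripts of single members can move in opposite directions within one organ.

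Total counts ran from 11158051 to 25214934 per library, and each gp1-2 library was deeper than each wild-type library. The study concerns a stearoyl-ACP desaturase, and the labels used here do not name the inserted locus. Transcripts of FAB2, a gene for that enzyme, were at 119 to 181 CPM (TMM-scaled counts per 1e6 reads) in wild type and at 551 to 746 CPM in gp1-2. The summed level of 6 leaf markers (photosynthesis genes) was 19338 to 24140 CPM in wild type, 12258 to 12904 CPM in untreated gp1-2 and 8741 to 10104 CPM in gp1-2 with volatiles. That of 9 root markers was 152 to 209 CPM over the 12 libraries. The RNA came from whole seedlings, so fewer cells of a type and less RNA per cell cannot be told apart.

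The untreated libraries numbered 1 stood apart for several members. In untreated wild type, 8 members were at less than 0.5 times the mean of libraries 2 and 3, namely EXPA16, EXLA1, EXLA2, TCH4, XTH16, XTH23, XTH25 and XTH33. In untreated gp1-2 the same held for 5 of these, EXLA1, EXLA2, TCH4, XTH23 and XTH25. EXPA1 went the other way, with library 1 above 1.5 times that mean in both genotypes. Genes in a list of 7 touch and handling genes varied within the untreated groups too, but not in 1 direction. ZAT10, a stress zinc-finger gene, stood at 102, 52.2 and 25.1 CPM in untreated wild type and 223, 176 and 105 CPM in untreated gp1-2. TCH2 and TCH3 had library 1 as the lowest in both untreated groups. For TCH3 the levels were 258, 390 and 302 CPM in untreated wild type and 1009, 1210 and 1178 CPM in untreated gp1-2. The part of handling in the members' values was not tested. Values without these libraries are given for some of the results that rest on them.

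Of the 37 members, 36 had enough reads to be tested. EXPA2, an expansin of germinating seeds, had 1 count in each of 2 gp1-2 libraries with volatiles and 0 in the other 10 libraries. Members differed widely in level when counts were divided by transcript length. In untreated wild type the XTH genes TCH4 (353 ± 156 CPM per kb, SD, n = 3), XTH4 (230 ± 58.9) and XTH9 (180 ± 64.1) were the most abundant, each within the spread of its neighbour in that order. TCH4 is known for rapid induction by touch, and XTH4 and XTH9 act in cell expansion in stems and wood. XTH31, which encodes a xyloglucan hydrolase, followed at 97.4 ± 24.3 CPM per kb, level within its spread with the alpha expansin EXPA4 (96.4 ± 2.44). EXPA1, an expansin of guard cells among other places, was the next at 75.3 ± 39.8 CPM per kb, an order that its spread does not separate from EXPA4. XTH33 (1.30 CPM per kb) and XTH25 (0.0807 CPM per kb) were the lowest of the tested members there.

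The order of levels changed with treatment and genotype. With volatiles, wild-type seedlings had XTH4 (393 ± 71.9 CPM per kb) and XTH9 (377 ± 45.3) in the lead, followed by TCH4 at 224 ± 64.5. XTH24, named MERI5 for its transcripts in meristems, ranked 17th of 37 in untreated wild type at 23.9 CPM per kb and 3rd in untreated gp1-2 at 134 ± 27.5. With volatiles, gp1-2 held XTH24 at 221 ± 34.6 CPM per kb, which overlaps the 238 ± 15.2 of TCH4, and XTH23 reached 111 ± 7.13.

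**Figure D1:**
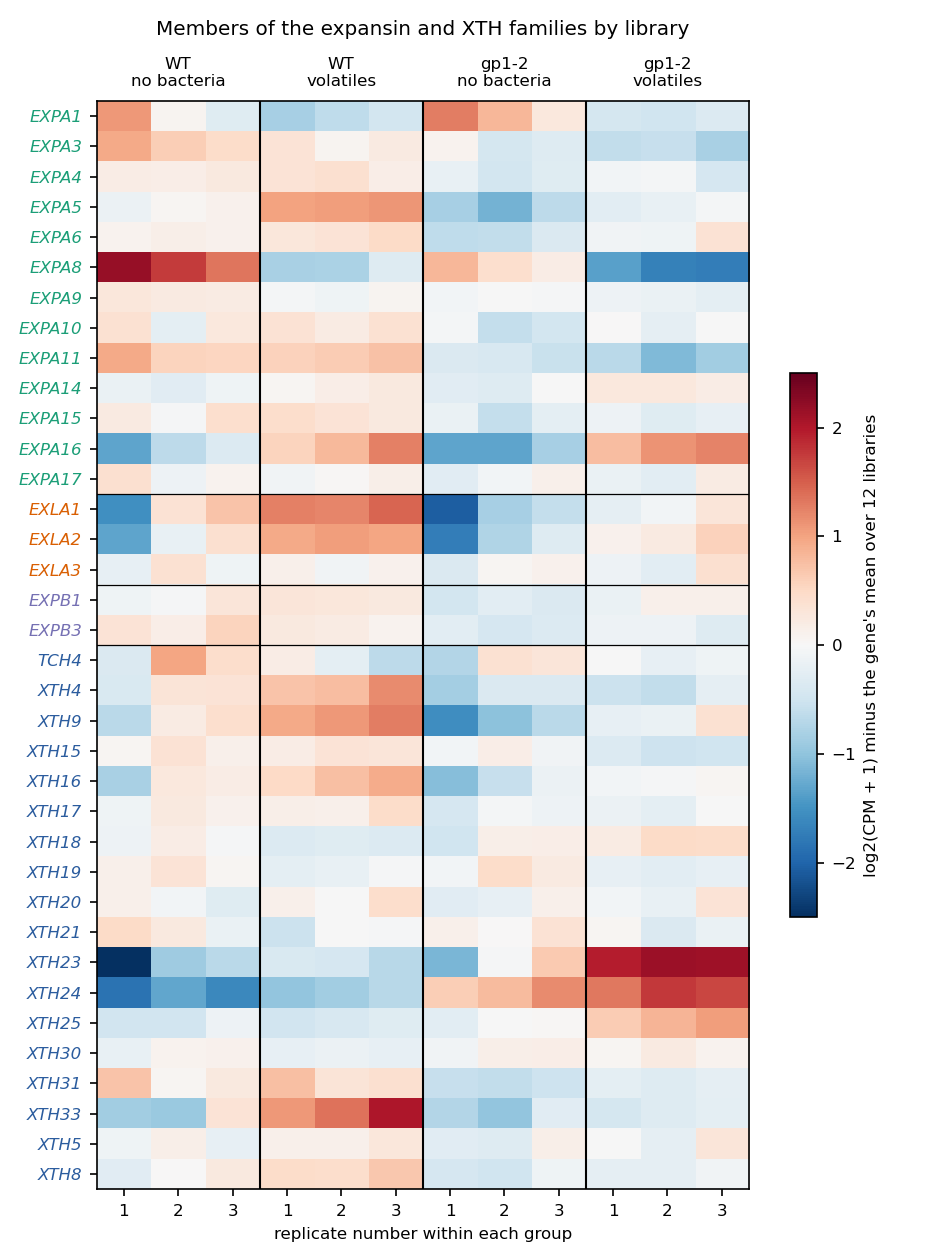
Level of the 36 tested members in each of the 12 libraries, as log2(CPM + 1) minus the gene's mean over the libraries; rows are genes grouped into alpha expansins, expansin-like genes, beta expansins and XTHs, and columns are replicates 1 to 3 of each group. XTH24 is red in all gp1-2 libraries and XTH23 in those with volatiles, EXPA8 turns blue with volatiles in both genotypes, and column 1 of each untreated group differs from columns 2 and 3 in EXLA1, EXLA2 and XTH23.

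Exposure to volatiles changed more members upward than downward. In wild type 15 of 36 members were called (41.7%; edgeR adjusted p under 0.05), 11 of them higher and 4 lower, beside 30.1% of all 20736 genes tested, 14.8% higher and 15.3% lower. In gp1-2 17 of 36 were called (47.2%), 11 higher and 6 lower, beside 32.3% of all genes, 14.7% higher and 17.6% lower. XTH25 is among these 11 and adds no support, since it passed the filter on low counts only through treated gp1-2. The median log2 change over the members was 0.15 in wild type and 0.17 in gp1-2, and over all genes it was 0 and -0.0027. Called in both genotypes were 6 higher members (EXPA5, EXPA14, EXPA16, EXLA2, XTH9 and XTH24) and 3 lower ones (EXPA1, EXPA3 and EXPA8). A further 6 passed in wild type alone and 8 in gp1-2 alone, which does not show that they differ between genotypes.

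The 13 tested alpha expansins split, with 3 called higher and 4 lower in wild type and 4 higher and 4 lower in gp1-2. EXPA8 (AT2G40610), which is induced by growth hormones in elongating hypocotyls, fell furthest. It stood at 57.5, 42.4 and 31.9 CPM in untreated wild type (replicates 1 to 3, the order used throughout) and at 6.41, 6.45 and 9.31 CPM with volatiles. In gp1-2 its level was 21.9, 16.4 and 13.8 CPM without bacteria and 4.06, 3.03 and 2.89 CPM with volatiles. Each treated library lay below each untreated library of its genotype. The log2 changes were -2.58 ± 0.23 in wild type (SE; edgeR adjusted p = 1.2e-06) and -2.39 ± 0.24 in gp1-2 (edgeR adjusted p = 3.6e-06).

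EXPA16 (AT3G55500) rose furthest among the expansins, from a low level. It stood at 1.62, 3.15 and 4.11 CPM in untreated wild type and at 8.61, 10.5 and 14.7 CPM with volatiles. In gp1-2 its levels were 1.60, 1.60 and 2.65 CPM without bacteria and 10.1, 13.3 and 14.3 CPM with volatiles. The treated and untreated ranges did not overlap in either genotype. The log2 change was 1.97 ± 0.29 in wild type (edgeR adjusted p = 0.00012) and 2.68 ± 0.28 in gp1-2 (edgeR adjusted p = 4.6e-06). The wild-type call was kept under all 23 alternative settings, at 1.65 to 2.23.

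The promoters of EXPA8 and EXPA16 are shown because these genes had the largest fall and the largest rise among the expansins in both genotypes. Each is the 250 bases before the annotated start in RefSeq TAIR10.1, read 5′ to 3′ on the gene's strand, with capitals for matches to 6 motifs searched on both strands. EXPA8 is at chr2:16950706-16950955 and EXPA16 at chr3:20576250-20576499, both on the minus strand.
EXPA8: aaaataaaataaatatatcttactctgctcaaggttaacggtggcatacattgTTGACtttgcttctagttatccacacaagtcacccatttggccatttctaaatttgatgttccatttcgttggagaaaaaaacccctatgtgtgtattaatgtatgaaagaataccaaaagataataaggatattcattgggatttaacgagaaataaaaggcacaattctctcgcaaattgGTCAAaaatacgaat
EXPA16: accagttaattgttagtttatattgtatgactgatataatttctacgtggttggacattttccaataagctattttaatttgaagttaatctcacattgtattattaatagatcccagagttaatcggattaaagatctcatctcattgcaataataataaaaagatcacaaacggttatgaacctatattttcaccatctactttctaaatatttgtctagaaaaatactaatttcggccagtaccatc
The motifs were CACGTG (G-box), TGTCTC (auxin response element), CGTGTG and CGTGCG (brassinosteroid response elements), TTGAC (W-box, the binding motif of WRKY factors) and AAATATCT (evening element). EXPA8 held 2 W-box matches and no match to the other 5, and EXPA16 held no match to any of the 6. A W-box match occurs in 44.926% of the 27443 protein-coding promoters of that length, so the matches are a description of these letters only.

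EXPA5 (AT3G29030), an expansin linked to brassinosteroid-driven growth, rose in both genotypes. Its wild-type level went from 16.5, 19.2 and 19.9 CPM to 38.1, 39.0 and 41.1 CPM, and in gp1-2 from 9.92, 7.63 and 11.4 CPM to 15.2, 16.1 and 17.9 CPM. The replicates were tight and no treated library overlapped an untreated one of its genotype. The log2 changes were 1.09 ± 0.12 (edgeR adjusted p = 1.3e-05) and 0.77 ± 0.13 (edgeR adjusted p = 0.00033). EXPA14 (AT5G56320), a target of the lateral-root regulator LBD18, rose less, by 0.37 in wild type and 0.47 in gp1-2 on the log2 scale. Its wild-type call was lost without untreated replicate 2 (0.31) or treated replicate 3 (0.32). EXPA6 (AT2G28950) was called in gp1-2 (0.62 ± 0.12, edgeR adjusted p = 0.0013), where it went from 41.8, 42.1 and 50.1 CPM to 60.8, 60.7 and 84.4 CPM.

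EXPA1 (AT1G69530) fell with volatiles from levels that varied among the untreated libraries. Wild type had 186, 92.4 and 70.6 CPM without bacteria and 48.6, 56.0 and 63.4 CPM with volatiles. The gp1-2 seedlings had 214, 156 and 105 CPM without bacteria and 64.8, 61.9 and 68.5 CPM with volatiles. Untreated replicate 1 was the highest library in both genotypes, and the treated libraries lay below all untreated ones. The log2 change was -1.28 ± 0.29 in gp1-2 (edgeR adjusted p = 0.003) and -1.06 ± 0.29 in wild type (edgeR adjusted p = 0.012). The wild-type value was -0.55 without untreated replicate 1, no longer called (edgeR adjusted p = 0.078), and -0.55 and called when the untreated libraries numbered 1 of both genotypes were left out (edgeR adjusted p = 0.028).

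EXPA3 (AT2G37640) fell by about the same amount in both genotypes. Its levels were 46.8, 36.8 and 33.2 CPM in untreated wild type, 30.2, 25 and 27.9 CPM with volatiles, 25.2, 17.2 and 18.7 CPM in untreated gp1-2 and 15.2, 15.6 and 13.1 CPM with volatiles. The changes of -0.50 ± 0.15 and -0.48 ± 0.15 (log2; edgeR adjusted p = 0.019 and 0.024) were each lost when 1 of 2 libraries was left out, with values of -0.43 to -0.34 in wild type (untreated replicate 1 or treated replicate 2) and -0.41 to -0.30 in gp1-2 (untreated replicate 1 or treated replicate 3). EXPA9 (AT5G02260) fell by 0.27 in wild type (edgeR adjusted p = 0.017), from 45.2, 43.7 and 43.0 CPM to 35.8, 34.5 and 39.0 CPM, and this call did not hold without untreated replicate 1 or treated replicate 1 or 2 (-0.26 to -0.23). EXPA11 (AT1G20190) was called lower in gp1-2, at 15.8, 15.3 and 13.7 CPM without bacteria and 12.5, 9.13 and 10.9 CPM with volatiles (-0.47 ± 0.13, edgeR adjusted p = 0.015). That call was lost without untreated replicate 1 (-0.42) or treated replicate 2 (-0.36).

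Both EXLA1 and EXLA2, expansin-like genes whose products share the expansin fold, were called higher with volatiles in wild type, and EXLA2 in gp1-2 too, whereas their relative EXLA3 was not called (log2 changes of 0.0034 and 0.12). EXLA2 (AT4G38400) went from 3.51, 8.85 and 13.8 CPM to 20.6, 22.2 and 21.2 CPM in wild type and from 2.37, 5.69 and 7.99 CPM to 11.1, 12 and 15.8 CPM in gp1-2. The ranges did not overlap, and untreated replicate 1 was the lowest library in each genotype. The log2 changes were 1.33 ± 0.36 (edgeR adjusted p = 0.011) and 1.28 ± 0.36 (edgeR adjusted p = 0.014), and the gp1-2 call was lost without untreated replicate 1 (0.93) or treated replicate 3 (1.11). The wild-type call was kept under all 23 alternative settings, at 0.94 to 1.78.

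EXLA1 (AT3G45970) also had untreated replicate 1 as its lowest library in each genotype. It stood at 16.1, 62.4 and 80.0 CPM in untreated wild type and 117, 115 and 134 CPM with volatiles. In gp1-2 it stood at 10.9, 26.8 and 31.5 CPM and 41.6, 46.4 and 60.0 CPM. No treated library overlapped an untreated one of its genotype. The log2 change was 1.22 ± 0.41 in wild type (edgeR adjusted p = 0.035) and 1.1 ± 0.42 in gp1-2, which did not pass (edgeR adjusted p = 0.057). The gp1-2 rise passed under 9 of the alternative settings, at 0.76 to 1.39, upper-quartile scaling among them. The wild-type call was lost without any 1 of 5 wild-type libraries, all but untreated replicate 3, with values of 0.78 to 1.36. It was 0.78 and called when the untreated libraries numbered 1 of both genotypes were left out (edgeR adjusted p = 0.0029). Of the beta expansins, EXPB1 (AT2G20750) was called higher in gp1-2 (0.44 ± 0.14, edgeR adjusted p = 0.022), from 6.34, 7.35 and 6.83 CPM to 7.97, 9.91 and 9.88 CPM, but not without untreated replicate 1 or treated replicate 2 or 3 (0.39 in each case). EXPB3 (AT4G28250) was not called in either genotype.

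**Figure D2:**
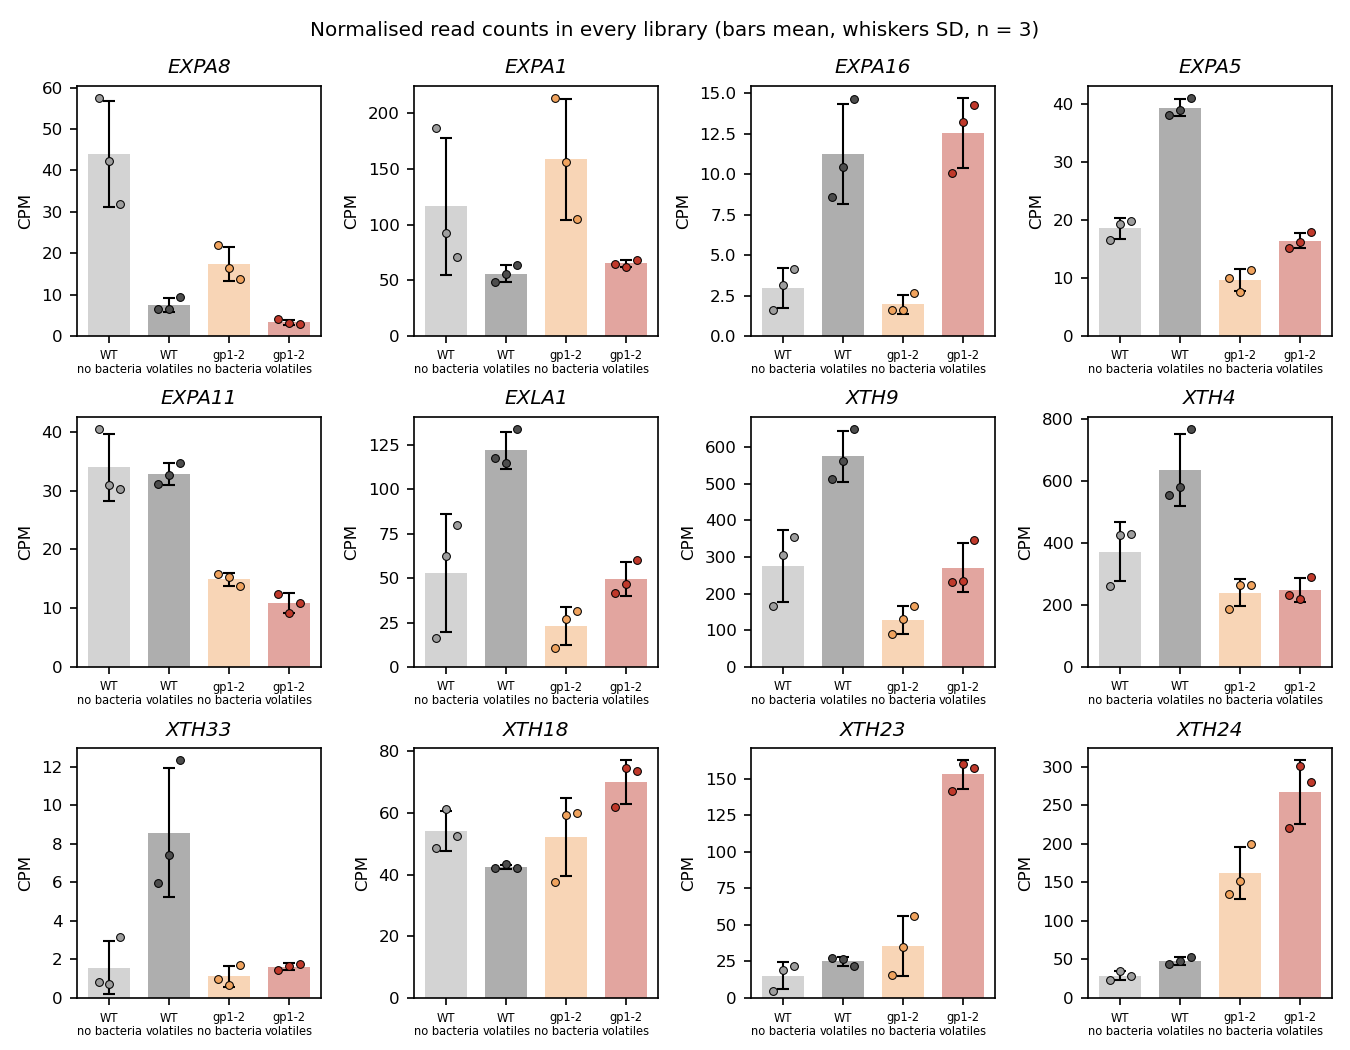
Normalised counts (CPM) of 12 members in each library, with the bar at the mean and the whisker at 1 SD of the 3 replicates of each group (x axis, group; y axis, CPM from 0). EXPA8 is lower and EXPA16 higher with volatiles in both genotypes, XTH33 is high in treated wild type, and XTH24 is higher in both gp1-2 groups than in either wild-type group.

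Of the 18 XTH genes, 6 were called with volatiles in wild type (33.3%), each of them higher, and 7 in gp1-2 (38.9%), 5 higher and 2 lower. The shares called over all genes were close to these, at 30.1% in wild type (14.8% higher) and 32.3% in gp1-2 (14.7% higher). XTH9 (AT4G03210) rose by a similar factor in both genotypes. It stood at 165, 306 and 354 CPM in untreated wild type and 513, 563 and 649 CPM with volatiles. In gp1-2 it stood at 90.4, 130 and 166 CPM and 231, 235 and 347 CPM. The ranges did not overlap within a genotype, and the treated gp1-2 libraries lay within the span of untreated wild type. The log2 changes were 1.06 ± 0.25 (edgeR adjusted p = 0.0049) and 1.07 ± 0.25 (edgeR adjusted p = 0.0043).

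XTH24 (AT4G30270) also rose in both genotypes, by 0.74 ± 0.17 in wild type (log2; edgeR adjusted p = 0.0042) and 0.72 ± 0.16 in gp1-2 (edgeR adjusted p = 0.0029). XTH33 (AT1G10550), an XTH attached to the plasma membrane, had the largest rise in wild type. Its levels were 0.811, 0.738 and 3.15 CPM without bacteria and 5.94, 7.44 and 12.3 CPM with volatiles. In gp1-2 it was between 0.663 and 1.78 CPM in all 6 libraries. The log2 change was 2.57 ± 0.42 in wild type (edgeR adjusted p = 0.00036) and 0.53 ± 0.47 in gp1-2 (edgeR adjusted p = 0.42). The wild-type call was kept under all 23 alternative settings, at 2.21 to 3.46.

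XTH4 (AT2G06850) rose in wild type from 262, 426 and 428 CPM to 554, 581 and 768 CPM (0.77 ± 0.19 log2, edgeR adjusted p = 0.0063). In gp1-2 it was at 188, 264 and 264 CPM without bacteria and 232, 220 and 291 CPM with volatiles, and the groups overlapped (0.05 ± 0.19). XTH8 (AT1G11545) followed the same course, with 0.54 ± 0.13 in wild type (edgeR adjusted p = 0.0065) and 0.16 ± 0.13 in gp1-2. XTH16 (AT3G23730), one of the XTHs induced in shaded petioles, rose from 43.2, 92.0 and 87.0 CPM to 108, 129 and 145 CPM in wild type (0.79 ± 0.24, edgeR adjusted p = 0.022). That call was lost without untreated replicate 1 (0.51) or treated replicate 2 or 3 (0.78 and 0.68), and stood at 0.51 when the untreated libraries numbered 1 of both genotypes were left out (edgeR adjusted p = 0.018).

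XTH23 (AT4G25810), formerly XTR6, had the largest rise of the XTH genes above 1 CPM in gp1-2. It was at 15.5, 34.7 and 56.4 CPM in untreated gp1-2 and at 142, 160 and 157 CPM with volatiles. Its wild-type levels were 4.93, 18.8 and 22.1 CPM without bacteria and 27.2, 26.3 and 21.5 CPM with volatiles. The treated gp1-2 libraries lay above the other 9 libraries, whereas the wild-type groups overlapped. The log2 change was 2.11 ± 0.39 in gp1-2 (edgeR adjusted p = 0.00082) and 0.74 ± 0.43 in wild type (edgeR adjusted p = 0.22). The gp1-2 call was kept under all 23 alternative settings, at 1.75 to 2.61. XTH25 (AT5G57550), the gene next to TCH4 on chromosome 5, had 0, 0 and 3 counts in untreated wild type, 0, 1 and 2 with volatiles, 3, 7 and 8 in untreated gp1-2 and 24, 33 and 49 in gp1-2 with volatiles. It passed the filter on low counts only through treated gp1-2, so no fitted change is given. Its calls are among the 5 XTH genes counted as higher with volatiles in gp1-2 and the 5 counted as higher in treated gp1-2 than in treated wild type, and they add no support to those counts.

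XTH15, XTH18 and XTH19 moved by smaller amounts in gp1-2. XTH15 (AT4G14130, formerly XTR7, a gene of the shade response) was at 17.7, 21.2 and 17.4 CPM without bacteria and 14.5, 12.7 and 12.9 CPM with volatiles (-0.49 ± 0.11, edgeR adjusted p = 0.0034). In wild type XTH15 was at 19.3, 24.3 and 20.4 CPM and 21.4, 24.0 and 23.4 CPM, with overlap. The root-expressed genes XTH18 and XTH19 lie side by side on chromosome 4, and 1.70% and 1.77% of their 50-base windows are shared with a related member, so reads could be split between them in that small part. XTH19 (AT4G30290) was at 24.1, 35 and 29.6 CPM in untreated gp1-2 and 21.7, 20.8 and 21.6 CPM with volatiles (-0.47 ± 0.12, edgeR adjusted p = 0.0081), and this call did not hold without untreated replicate 2 (-0.33). XTH18 (AT4G30280) went the other way, from 37.5, 59.3 and 59.9 CPM to 61.8, 74.6 and 73.8 CPM (0.42 ± 0.15, edgeR adjusted p = 0.037), and this call did not hold without untreated replicate 1 (0.23) or treated replicate 2 or 3 (0.38 and 0.39). In wild type the means of both fell with volatiles, XTH19 from 21.4 to 17.0 CPM per kb and XTH18 from 42.9 to 33.7. Neither fall was called, but that of XTH19 passed under 9 alternative settings (-0.40 to -0.34) and that of XTH18 under 4 (-0.42 to -0.34). TCH4 (AT5G57560) was not called in either genotype. TCH4 levels in wild type were 317, 812 and 555 CPM without bacteria and 464, 343 and 260 CPM with volatiles (-0.66 ± 0.30, edgeR adjusted p = 0.12). Without untreated wild-type replicate 1 its change was -0.94 and passed the test (edgeR adjusted p = 0.02). The 7 touch and handling genes, which do not include TCH4, were all called lower with volatiles in wild type, beside 15.3% of all genes. In gp1-2, 6 of 7 were called lower, beside 17.6% of all genes. Their summed level was 515 to 749 CPM in untreated wild type and 285 to 319 CPM in wild type with volatiles.

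**Figure D3:**
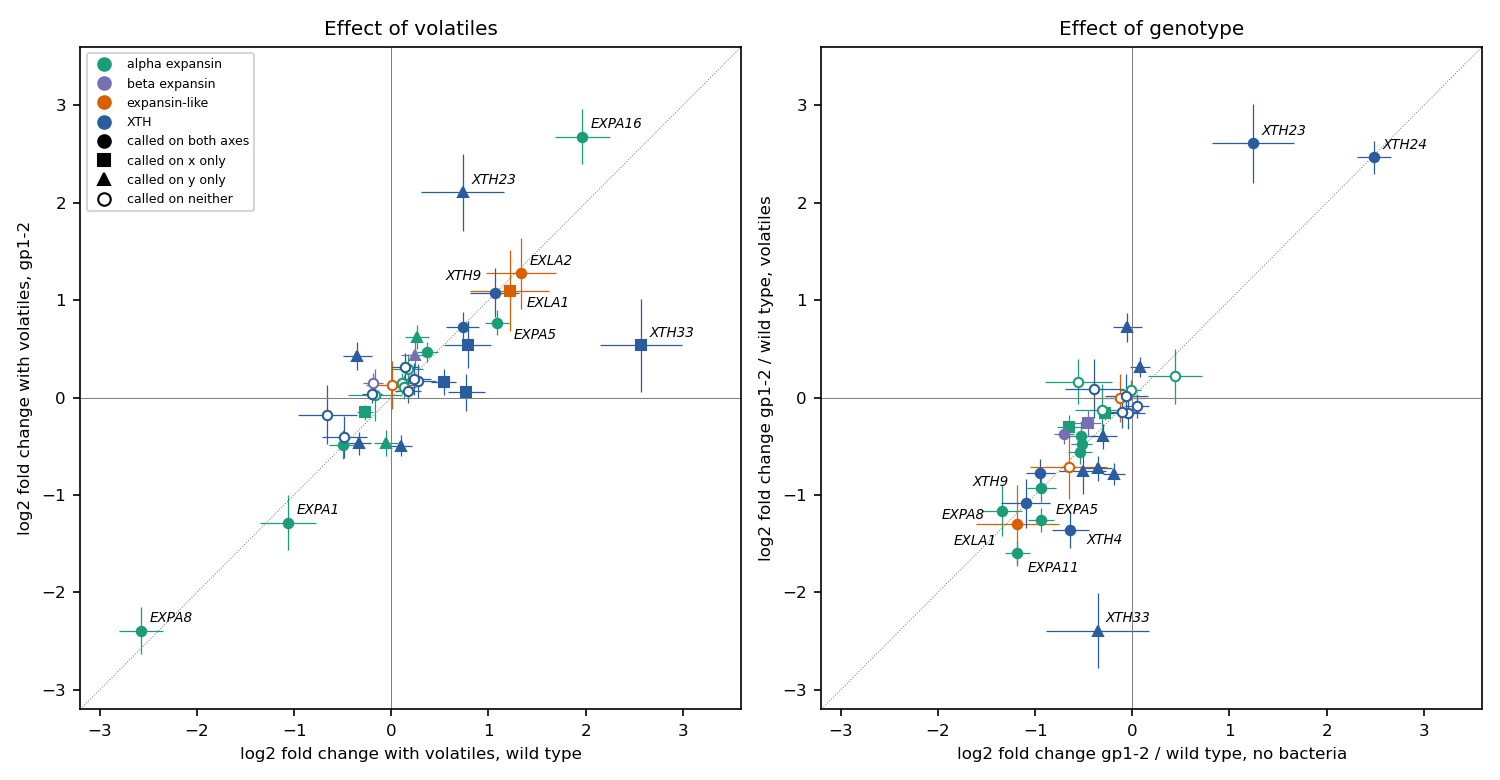
Log2 fold changes of 35 tested members (XTH25, near 0 counts in wild type, is left out), with the effect of volatiles in wild type against that in gp1-2 on the left and the effect of genotype without bacteria against that with volatiles on the right; whiskers are 1 SE, filled symbols passed the test on at least 1 axis, and the dotted line marks equal changes. EXPA8 and EXPA16 lie far from 0 on both axes of the left panel, XTH33 on the wild-type axis and XTH23 on the gp1-2 axis, and most expansins lie in the lower left of the right panel.

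Comparison of the genotypes gave a one-sided picture for the expansins. The counts below are from the main fit, which did not use the replicate number as a block. Without bacteria 17 of 36 members were called (47.2%), 2 higher and 15 lower in gp1-2, beside 37.2% of all genes, 20.0% higher and 17.2% lower. With volatiles 22 of 36 were called (61.1%), 5 higher and 17 lower, beside 45.9% of all genes, 22.6% higher and 23.3% lower. XTH25 is among these 5 and adds no support here either. The median log2 difference over the members was -0.38 without bacteria and -0.34 with volatiles, beside -0.02 and -0.04 over all genes. In both conditions 12 members were lower (EXPA3, EXPA4, EXPA5, EXPA8, EXPA10, EXPA11, EXPA15, EXLA1, EXPB3, XTH4, XTH9 and XTH31) and 2 were higher (XTH23 and XTH24). With upper-quartile scaling the median of all genes shifted to -0.11 and -0.13, and the calls over all genes split into 3406 higher and 4769 lower without bacteria (4156 and 3567 with TMM) and 4064 and 6033 with volatiles (4688 and 4837 with TMM). The members' counts were then 2 higher and 17 lower, and 4 higher and 20 lower.

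Every expansin or expansin-like gene called between genotypes was lower in gp1-2, 12 of 18 without bacteria and 9 of 18 with volatiles. By subfamily these were 9 and 7 of 13 alpha expansins, 1 and 1 of 3 expansin-like genes, and 2 and 1 of 2 beta expansins. The median log2 difference of the 18 was -0.55 without bacteria and -0.39 with volatiles. The leaf markers moved in the same direction, 6 of 6 lower in gp1-2 in both conditions with medians of -0.90 and -1.57, and the root markers had 0 of 9 called without bacteria by edgeR (0 at an unadjusted p under 0.05) and 1 of 9 with volatiles. The part of leaf marker levels in the members' differences was not tested.

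EXPA11 differed most among the expansins when volatiles were present. It was at 40.5, 31.0 and 30.3 CPM in untreated wild type and 15.8, 15.3 and 13.7 CPM in untreated gp1-2. With volatiles it was at 31.0, 32.7 and 34.7 CPM in wild type and 12.5, 9.13 and 10.9 CPM in gp1-2. The 6 gp1-2 libraries lay below the 6 wild-type libraries. The log2 differences were -1.19 ± 0.13 (edgeR adjusted p = 2.8e-06) and -1.60 ± 0.13 (edgeR adjusted p = 7e-08). EXPA5, whose values are given above, differed by -0.94 ± 0.13 without bacteria (edgeR adjusted p = 3.9e-05) and -1.26 ± 0.12 with volatiles (edgeR adjusted p = 4.2e-07). EXPA8 differed by -1.35 ± 0.20 without bacteria (edgeR adjusted p = 8.6e-05) and -1.16 ± 0.26 with volatiles (edgeR adjusted p = 0.002).

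EXPA3, EXPA4, EXPA10 and EXPA15 were lower in gp1-2 too. EXPA3 differed by -0.94 ± 0.15 without bacteria and -0.92 ± 0.15 with volatiles (edgeR adjusted p = 0.00013 and 0.00011). EXPA4 (AT2G39700) was at 144, 142 and 149 CPM in untreated wild type against 110, 91.1 and 101 CPM in untreated gp1-2 (-0.52 ± 0.11, edgeR adjusted p = 0.0015), without overlap. EXPA15 (AT2G03090) was at 70.4, 59.2 and 80.5 CPM against 53.7, 39.5 and 50.9 CPM (-0.54 ± 0.12, edgeR adjusted p = 0.0029), again without overlap. EXPA10 (AT1G26770), which promotes leaf growth, was at 51.8, 33.3 and 47.4 CPM against 37.9, 25.8 and 28.3 CPM and overlapped. Its differences of -0.52 and -0.40 were the least secure, lost when any 1 of 4 untreated libraries (wild type 1 or 3, gp1-2 2 or 3; -0.47 to -0.39) or any 1 of 7 libraries (the 6 treated ones and untreated wild type 3; -0.45 to -0.33) was left out. Called by the main fit without bacteria alone were EXPA6 (-0.66 ± 0.12), EXPA9 (-0.28 ± 0.08) and EXPB1 (-0.46 ± 0.14). EXPA9 was not called when the untreated libraries numbered 1 of both genotypes were left out (-0.24, edgeR adjusted p = 0.099). EXPB1 was not called without untreated wild-type replicate 3 (-0.32) or untreated gp1-2 replicate 1 (-0.41). Between treated genotypes EXPA6 passed as lower under 6 alternative settings (-0.48 to -0.30).

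EXPA16, EXPA1, EXLA2 and EXLA1 depended on the fit or on single libraries. The replicate numbers were taken to pair the untreated libraries, from correlations of 0.191 to 0.317, and the labels do not state it. The main fit did not use this pairing. With the number as a block over all 12 libraries, EXPA16 was called lower in untreated gp1-2 (-0.57, edgeR adjusted p = 0.043), as were XTH16 (-0.50), XTH17 (-0.30) and XTH8 (-0.35). These 4 were not called by edgeR with TMM scaling and no block, but XTH8 passed under 8 of the alternative settings, XTH16 under 4 and XTH17 under 3, the block included in each. Over all genes the block gave 4491 higher and 4051 lower calls between untreated genotypes, beside 4156 and 3567 without it. EXPA1 was not called between untreated genotypes (0.44 ± 0.28, edgeR adjusted p = 0.25), and without untreated wild-type replicate 1 it passed as higher in gp1-2 (0.96). EXLA2, also not called there, passed as lower in gp1-2 without untreated wild-type replicate 1 or both untreated libraries numbered 1. The EXLA2 difference was then -1.05 to -0.70. Between treated genotypes EXLA2 was not called by the main fit and passed as lower under 6 alternative settings (-0.75 to -0.66). EXLA1 differed by -1.18 ± 0.42 without bacteria (edgeR adjusted p = 0.039), and its groups overlapped. That call was lost without any 1 of 5 libraries (untreated wild type 2 or 3, treated wild type 2, untreated gp1-2 1 or 2), with differences of -1.30 to -0.76. With volatiles EXLA1 differed by -1.30 ± 0.41 without overlap (edgeR adjusted p = 0.016), and the call was lost without treated gp1-2 replicate 1 (-1.20) or 2 (-1.26). EXPB3 was at 83.3, 73.5 and 96.8 CPM in untreated wild type and 54.7, 48.9 and 51.4 CPM in untreated gp1-2, with no overlap. Its differences were -0.71 ± 0.10 (edgeR adjusted p = 5.6e-05) and, with volatiles, -0.37 ± 0.10 (edgeR adjusted p = 0.0072).

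The XTH genes divided between the genotypes, with 2 higher and 3 lower in gp1-2 without bacteria and 5 higher and 8 lower with volatiles. The shares called were 27.8% without bacteria and 72.2% with volatiles, beside 37.2% and 45.9% of all genes. XTH24 was far higher in gp1-2 in both conditions. Its levels were 23.6, 35 and 28.1 CPM in untreated wild type and 135, 152 and 199 CPM in untreated gp1-2. With volatiles they were 43.7, 47.3 and 53.6 CPM in wild type and 220, 300 and 280 CPM in gp1-2. The lowest gp1-2 library held more than the highest wild-type library. The log2 differences were 2.49 ± 0.17 (edgeR adjusted p = 1.6e-08) and 2.47 ± 0.17 (edgeR adjusted p = 9.2e-09). XTH18, its immediate neighbour on chromosome 4, differed by -0.05 ± 0.15 without bacteria and XTH19, 1 gene further, by 0.05 ± 0.12. Of the 7 touch and handling genes, 4 were higher in gp1-2 and 1 lower without bacteria, and 4 were higher with volatiles (medians of 1.48 and 2.38). Their summed level was 1636 to 1840 CPM in untreated gp1-2 and 1167 to 1224 CPM in treated gp1-2, above the wild-type sums given earlier, and their part in the XTH differences was not tested.

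XTH23 was higher in gp1-2 by 2.61 ± 0.41 with volatiles (log2; edgeR adjusted p = 7e-05), where the lowest gp1-2 library held 142 CPM and the highest wild-type library 27.2 CPM. Without bacteria the difference was 1.24 ± 0.42 (edgeR adjusted p = 0.03), the groups overlapped, and the call did not hold without untreated wild-type replicate 1 (0.80), untreated gp1-2 replicate 2 (1.26) or untreated gp1-2 replicate 3 (0.74). With volatiles XTH18 (0.72 ± 0.15, edgeR adjusted p = 0.0009) and XTH30 (0.31 ± 0.10, edgeR adjusted p = 0.018) were higher too. For XTH18 the levels were 42.2, 43.4 and 42.2 CPM in wild type and 61.8, 74.6 and 73.8 CPM in gp1-2. For XTH30 they were 27.8, 29.3 and 27.8 CPM and 33.4, 37.8 and 34.3 CPM, and the call was lost without treated wild-type replicate 1 (0.30) or treated gp1-2 replicate 2 (0.26), and with upper-quartile scaling (0.23).

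The promoter of XTH23 is shown because XTH23 was called higher in gp1-2 in both conditions and rose further there with volatiles. Without bacteria the groups overlapped, and that call was lost under 6 of 23 alternative settings. XTH24 met the same description with its calls kept under all 23, and its promoter is not shown. The XTH23 promoter is the 250 bases before the annotated start in RefSeq TAIR10.1, with capitals as above, at chr4:13128144-13128393 on the plus strand.
XTH23: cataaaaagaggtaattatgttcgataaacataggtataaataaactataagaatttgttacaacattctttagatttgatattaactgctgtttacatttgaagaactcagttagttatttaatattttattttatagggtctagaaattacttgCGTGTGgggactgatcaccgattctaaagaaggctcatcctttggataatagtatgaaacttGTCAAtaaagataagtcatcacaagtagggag
XTH23 held a W-box match and a CGTGTG match. Over the members, CGTGTG was found in 7 of 37 promoters (18.9%; 5.367% of all promoters), in EXPA1, EXPA2, EXPA6, EXLA2, XTH8, XTH23 and XTH25. TTGAC was in 14 of 37, 10 of 18 XTH and 4 of 19 expansin promoters. TGTCTC was in 3 of 37 (10.946% of all), CGTGCG in 1 (1.567%), AAATATCT in 2 (4.788%) and CACGTG in 0 (6.486%). A match here is a description of the letters and not a binding site.

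XTH9 was lower in gp1-2 by a similar amount in both conditions, with differences of -1.1 ± 0.25 (edgeR adjusted p = 0.0029) and -1.08 ± 0.25 (edgeR adjusted p = 0.0022). XTH31 (AT3G44990) stood at 174, 108 and 125 CPM in untreated wild type and 69.7, 67.9 and 73.3 CPM in untreated gp1-2. With volatiles it was at 178, 131 and 139 CPM and 88.2, 84.3 and 89.7 CPM. The gp1-2 libraries lay below the wild-type libraries in both conditions. The log2 differences were -0.95 ± 0.15 (edgeR adjusted p = 0.00011) and -0.78 ± 0.15 (edgeR adjusted p = 0.00043).

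XTH4 differed by -0.64 ± 0.19 without bacteria (edgeR adjusted p = 0.015), with overlap, and by -1.36 ± 0.19 with volatiles (edgeR adjusted p = 2.7e-05), without overlap. The first of these calls did not hold without untreated wild-type replicate 2 or 3 or untreated gp1-2 replicate 1 (-0.53 to -0.49). XTH33 differed by -2.39 ± 0.38 with volatiles (edgeR adjusted p = 8.8e-05), where gp1-2 was at 1.44, 1.65 and 1.78 CPM, below the 5.94 CPM of the lowest wild-type library, and by -0.36 ± 0.53 without bacteria. XTH8, XTH15, XTH16 and XTH17 were called lower with volatiles only, with differences of -0.73, -0.78, -0.76 and -0.40. XTH16 was lost without treated wild-type replicate 3 (-0.65) or treated gp1-2 replicate 1 (-0.73), and XTH17 without treated wild-type replicate 3 (-0.28) or treated gp1-2 replicate 1 or 2 (-0.39 and -0.34). XTH5, XTH20 and XTH21 were called in none of the 4 comparisons by edgeR, with log2 values of -0.48 to 0.28. XTH21 passed with volatiles in wild type when untreated replicate 3 was left out (-0.65).

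Whether volatiles acted differently in the genotypes was tested by the interaction, the effect in gp1-2 minus that in wild type. With edgeR 0 of 36 members passed, beside 2.80% of all genes (1.48% higher, 1.32% lower). An unadjusted p under 0.05 in that test was found for 7 of 36 members, beside 3141 of all 20736 genes tested. DESeq2 called 2 members, XTH18 (0.81, DESeq2 adjusted p = 0.013) and XTH15 (-0.56, DESeq2 adjusted p = 0.045), and limma-voom called 0. With the replicate number as a block, XTH18 was called higher and XTH4, XTH15 and XTH33 lower. The lowest p-values by edgeR were those of XTH15 (-0.60 ± 0.16, edgeR adjusted p = 0.058) and XTH18 (0.77 ± 0.21, edgeR adjusted p = 0.063). XTH33 (-2.04 ± 0.66, edgeR adjusted p = 0.12), XTH4 (-0.72 ± 0.27, edgeR adjusted p = 0.19) and XTH23 (1.37 ± 0.57, edgeR adjusted p = 0.26) had larger or similar differences with wider errors. XTH23 passed without untreated wild-type replicate 1, at 1.81 (edgeR adjusted p = 0.043), and at 1.45 without the untreated libraries numbered 1 of both genotypes (edgeR adjusted p = 0.011). For XTH24 and XTH9 the interaction was near 0 (-0.02 ± 0.23 and 0.01 ± 0.35), which does not show that the effects were equal.

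**Figure D4:**
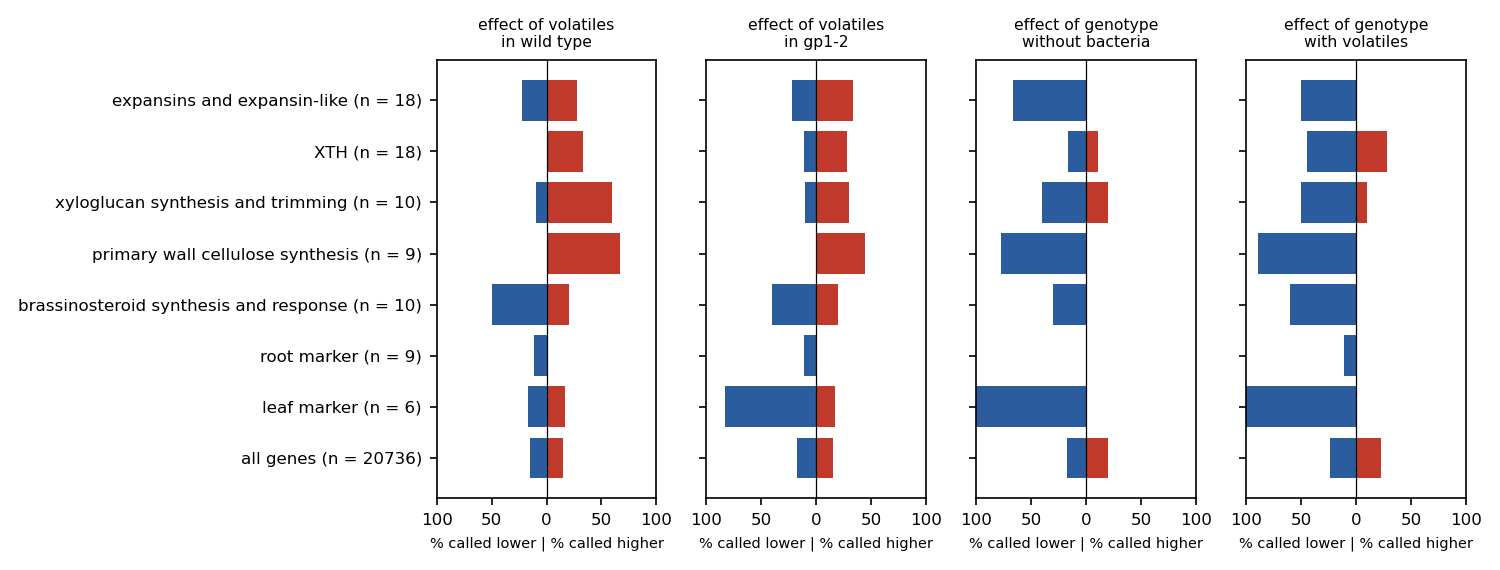
Percent of tested genes called higher (red, right) and lower (blue, left) in each of 4 comparisons, for the expansins and expansin-like members, the XTH members, related gene lists and all genes tested; the number of tested genes is in brackets. The expansin bar points only to the left in both genotype panels, as do those of cellulose synthesis, brassinosteroid and leaf marker genes.

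Related wall genes were counted in the same fits. Of 12 tested XTH genes outside the 37, 5 were called higher with volatiles in wild type, and 3 higher and 1 lower in gp1-2. The shares called were 41.7% and 33.3%, the second near that of all genes. Between genotypes, 2 of them were higher and 3 lower in gp1-2 without bacteria, and 3 higher and 5 lower with volatiles. Of 6 tested expansins outside the 37, 4 were higher with volatiles in wild type and 3 in gp1-2. Between genotypes 1 was higher and 1 lower without bacteria and 1 lower with volatiles (medians of -0.02 and -0.29). The shares of these expansins called between genotypes, 33.3% and 16.7%, were under those of all genes. The largest rise in each genotype was that of EXPB2 (1.76 ± 0.44 in wild type, edgeR adjusted p = 0.0075) and EXLB1 (0.89 ± 0.19 in gp1-2, edgeR adjusted p = 0.0024). Of 9 primary wall cellulose synthesis genes, 6 were higher with volatiles in wild type and 4 in gp1-2, and 7 were lower in gp1-2 without bacteria and 8 with volatiles. CESA5, a subunit of the cellulose synthase complex, rose by 0.89 ± 0.13 with volatiles in wild type (edgeR adjusted p = 0.00011) and was lower in treated gp1-2 (-0.96 ± 0.13, edgeR adjusted p = 1.5e-05). Of 10 genes of xyloglucan synthesis and trimming, 6 were higher and 1 lower with volatiles in wild type, 3 higher and 1 lower in gp1-2, and between genotypes 2 were higher and 4 lower without bacteria and 1 higher and 5 lower with volatiles. The lower gene with volatiles was BGAL10, the xyloglucan beta-galactosidase, at -0.68 ± 0.08 in wild type and -0.67 ± 0.08 in gp1-2 (edgeR adjusted p = 2.7e-05 and 2.2e-05).

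Of 10 brassinosteroid synthesis and response genes, 2 were higher and 5 lower with volatiles in wild type. In gp1-2, 2 were higher and 4 lower with volatiles. Between genotypes, 3 were lower in gp1-2 without bacteria and 6 with volatiles. The shares called were 70% and 60% with volatiles, and 30% and 60% between genotypes. Over all genes they were 30.1%, 32.3%, 37.2% and 45.9% in the same order. DWF4, which catalyses a rate-limiting step of brassinosteroid synthesis, rose with volatiles by 1.19 ± 0.13 in wild type (edgeR adjusted p = 1e-05) and 0.76 ± 0.13 in gp1-2 (edgeR adjusted p = 0.0005). It was lower in treated gp1-2 than in treated wild type (-1.0 ± 0.13, edgeR adjusted p = 9e-06). The plasma membrane proton pumps AHA1 and AHA2, which acidify the wall, differed little: AHA2 rose by 0.37 in wild type and 0.31 in gp1-2 and AHA1 fell by 0.36 in wild type. Neither pump was called between genotypes by edgeR.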

How the data were processed

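The values are raw counts of reads, deposited by the authors as 1 table of 33602 genes by 12 libraries, and each row names a gene. Trimmomatic 0.36, HISAT2 2.1.0, HTSeq 0.9.1 and the build TAIR10 are listed in the submitters' processing notes, and strand and multi-mapping settings are not given in the sources used here. Each library was put in its group by its title. The filter filterByExpr of edgeR left 20736 genes. Libraries were scaled by TMM, and the quasi-likelihood F test of edgeR was used (edgeR 4.0.16, limma 3.58.1, R 4.3.3), with 1 coefficient per group over all 12 libraries and Benjamini-Hochberg adjustment over all genes tested. An adjusted p under 0.05 made a call, and an SE is the log2 change divided by the square root of F. CPM values use TMM-scaled library sizes, and CPM per kb divides them by the merged exon length in the RefSeq TAIR10.1 annotation, which named 32835 identifiers. Promoters were read from that genome.

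The members and lists were chosen with earlier results of these data known. All 37 members could be named; values in every library were given for the up to 5 largest rises and up to 5 largest falls per comparison among called members with a mean of at least 1 CPM, and for others that a result touches. For other lists, the largest called rise or fall could be named. Beyond these rules, genes such as ZAT10, TCH2, TCH3 and XTH21 were picked after their values had been seen.

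All groups carry replicate numbers 1 to 3 in the labels. Deviations from the group means correlated between same-numbered libraries at 0.191 to 0.317 for the 2 untreated groups. Numbers were therefore taken to pair those. For the other comparisons at least 1 pair was under 0.1. The main fit had no block, so its calls do not use this pairing. With the number as a block, 4491 genes were higher and 4051 lower between untreated genotypes, beside 4156 and 3567 without it. Chi-square per degree of freedom between replicates was 2.58 to 15.3, more than resampled reads of 1 library would give. It cannot tell whether 2 libraries came from the same plants. Treated wild-type replicates 1 and 2 were the closest (2.58), against 15.3 and 13 to replicate 3. Whether replicates came from separate plates is not stated. The p-values weigh a group difference against the spread between these libraries only. The fit was also run on simulated counts, in which all genes shared 1 spread and a small share of genes changed in 1 group. Those settings are simpler than these data, so that run gives no error rate for the calls here. Alternatives were RLE and upper-quartile scaling, no filter and a stricter filter on low counts, DESeq2 1.42.0, limma-voom, only the groups compared, the replicate block, thinned counts, and leaving out each library; leaving out both untreated libraries numbered 1, or numbered 3, was added after the data had been seen. A planned search for protein motifs was not run, since no protein sequences were used here.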

Additional observations from a re-analysis of the deposited data

Results flagged for a closer look

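Over the genes named here, 5 that are not among the 37 members had an effect of volatiles that differed between the genotypes by edgeR's interaction test. The XTH family gene XTH10 had an interaction of 1.60 ± 0.36 (log2, SE; edgeR adjusted p = 0.027). It was at 1.41 to 3.25 CPM in the 6 wild-type libraries, at 29.5, 30.3 and 46.0 CPM in untreated gp1-2 and at 105, 86.3 and 89.2 CPM in gp1-2 with volatiles. Its difference between treated genotypes was 5.58 ± 0.23, larger than that of XTH24 or XTH23, and it rose within gp1-2 by 1.41 ± 0.16. Of the leaf markers, LHCA1, a light-harvesting protein of photosystem I, had an interaction of -0.82 ± 0.11 (edgeR adjusted p = 0.00088) and PSBO1, a subunit of the oxygen-evolving complex, of -0.52 ± 0.12 (edgeR adjusted p = 0.038). Of the touch and handling genes, ZAT12 had 1.58 ± 0.35 (edgeR adjusted p = 0.025) and WRKY40 2.87 ± 0.54 (edgeR adjusted p = 0.01). WRKY40 was at 107, 59.1 and 25.8 CPM in untreated wild type, where replicates varied widely, and at 4.41, 4.47 and 2.65 CPM with volatiles.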

How the results depend on the processing

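Over the 71 member calls of the 4 comparisons between 2 groups, 0 changed direction under 23 alternative settings, 49 were kept without each single library and 22 were lost when some library was left out; 9 were lost under some other planned setting, 4 of them with DESeq2 and 4 with thinned counts. DESeq2 ended the calls of EXLA1 with volatiles in wild type, of EXLA1 and XTH23 between untreated genotypes, all 3 also lost in the fit to only the groups compared, and of EXPA10 between treated genotypes, also lost with RLE scaling. Limma-voom ended that of EXLA1 between untreated genotypes, upper-quartile scaling that of XTH30 between treated genotypes, and thinning those of EXPA3, EXPB1 and XTH18 with volatiles in gp1-2 and of XTH17 between treated genotypes. Without 1 library, members called with volatiles in wild type were 8 to 12 higher and 2 to 6 lower, and in gp1-2 8 to 14 higher and 4 to 6 lower. Between genotypes they were 1 to 3 higher and 11 to 18 lower without bacteria, and 4 to 5 higher and 13 to 18 lower with volatiles. For the interaction, 329 to 615 genes were called, with 0 to 1 members higher and 0 to 1 lower. Without the untreated libraries numbered 1 of both genotypes, 7 members were lower with volatiles in wild type and the interaction had 290 genes and 1 member higher; without those numbered 3 it had 1 member lower. DESeq2 gave 941 interaction genes, with 1 member higher and 1 lower, and 1 member higher between untreated genotypes, as did the fit to only the groups compared. The interaction had 1 member higher with no filter on low counts and 1 lower with thinned counts. With the replicate block it had 1038 genes, with 1 member higher (XTH18) and 3 lower (XTH4, XTH15 and XTH33), and no member call was lost; EXPA6, XTH18 and XTH19 in wild type, EXPA10, EXLA1, XTH16 and XTH31 in gp1-2, and EXPA6 and EXLA2 between treated genotypes were called in addition. When libraries of 2 groups were correlated, 3 of 3 were closest to their own number between untreated genotypes, 3 of 3 in gp1-2, 2 of 3 between treated genotypes and 1 of 3 in wild type. The causes were not tested. Members at few counts, such as XTH25, XTH33 and EXPA17, are limited by depth. The calls of XTH25 are among the 71 and the 49 and add no support to them.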
